A study of Homo sapiens with 8 samples.

Results

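The genes described here encode the 10 enzymes, isozymes included, that build purine nucleotides from simple precursors: PPAT, GART, PFAS, PAICS, ADSL, ATIC, IMPDH1, IMPDH2, GMPS and ADSS2. They are 10 of the 60725 genes listed in the count table, and all 10 had enough reads to be tested. They were selected on their place in the pathway and with the log2 fold changes between knockdown and control in these same libraries already known. Those fold changes are therefore given as a description and support nothing beyond themselves. The contrast between the 2 knockdowns was not the basis of the selection. The lists of genes around the pathway were, like the enzymes, drawn up with earlier results of these libraries known.

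RNA was sequenced from HAP1 cells, a near-haploid human cell line that grows attached, derived from a line of chronic myeloid leukaemia. All libraries came from SC9, a single clone that carries dCas9-KRAB, a Cas9 without cutting activity fused to a repressor domain which silences the promoter that its guide RNA binds. The study asked how far the negative elongation factor (NELF), a complex that holds RNA polymerase II near promoters, keeps genes silent in lamina-associated domains, the stretches of chromatin that lie against the nuclear envelope. The purine enzymes are described here apart from that question. Each library was made 144 h after transduction with 1 guide construct and selection with puromycin. The guide was directed at ADAM22 in the 3 control libraries (pLB187), at NELFE in 3 libraries and at NELFB in 2 libraries. Since every group came from the same clone, the spread between libraries does not include differences between clones.

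Total counts per library lay between 22037423 and 24444185. Levels are given as CPM, the reads of a gene relative to the TMM-scaled total of its library, and values within a group follow the replicate numbers of the labels. NELFE stood at 50.5, 49.4 and 48.1 CPM in the controls and at 2.41, 2.37 and 2.98 CPM in its own knockdown. NELFB stood at 74.4, 72.7 and 79.1 CPM in the controls and at 3.07 and 2.78 CPM in its own knockdown. Both targets were thus low in the libraries labelled for them. NELFB was also called lower in the NELFE knockdown (adjusted p = 0.0481), where it stood at 63.4, 63.9 and 64.0 CPM. ADAM22, the target of the control guide, was higher in all 5 NELF knockdown libraries (29.9 to 47.4 CPM) than in the controls (11.3 to 13.7 CPM), and no library without a guide was analysed here to serve as its reference.

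The cells were checked against marker lists. The blood cell marker HBG1 had no read in any library, and the list of 6 blood cell markers summed to 0.141 TPM in the controls, 0.419 TPM in the NELFE knockdown and 0.897 TPM in the NELFB knockdown, with CD33 the most abundant in the controls at 0.0895 TPM. CD34, the only marker of that list with enough reads to test, was called higher in the knockdowns together (adjusted p = 0.0142), from 3 counts or fewer in each control library to between 0.26 and 2.78 CPM. The other blood cell markers were at or near 0. Of 5 markers of attached cells, which summed to 363 TPM in the controls, 386 TPM after NELFE knockdown and 397 TPM after NELFB knockdown, VIM, an intermediate filament, was the most abundant at 311 TPM in the controls. The keratin KRT18 was at 38.5 TPM, the collagen COL1A1 at 10.4 TPM, KRT8 at 2.08 TPM and the epithelial adhesion gene EPCAM, too low to test, at 0.332 TPM. KRT8 and KRT18 were called higher in the knockdowns together (adjusted p = 0.00913 and 0.0174), while VIM and COL1A1 were not called. Their part in the results was not tested.

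Purine synthesis assembles the ring stepwise on a ribose phosphate taken from phosphoribosyl pyrophosphate (PRPP), with glutamine, glycine, aspartate, bicarbonate and formyl groups as donors. The pathway ends in inosine monophosphate (IMP), from which 1 branch leads to guanine nucleotides and the other to adenine nucleotides. Dividing cells depend on it for DNA and RNA, alongside salvage of ready-made bases. Below, the enzymes follow the order of the pathway.

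After NELF depletion 7 of the 10 mRNAs fell, by unequal amounts. IMPDH2, which encodes the rate-limiting enzyme of the guanine branch, stood at 48.3% of its control level after NELFE knockdown and 51.7% after NELFB knockdown. PFAS and PAICS stood between 67.4% and 72.2% and ADSL, ATIC, IMPDH1 and GMPS between 74.5% and 85.5%. PPAT, GART and ADSS2, which stand at the entry, in the early part and on the adenine branch of the pathway, lay within or close to the range of the controls. With all 5 knockdown libraries set against the 3 controls, 7 of the 10 enzymes were called lower and none higher at an adjusted p under 0.05 (edgeR's quasi-likelihood test, Benjamini-Hochberg), and the same 7 had all 5 knockdown values below all 3 control values. In the same comparison 12.7% of the 16367 genes tested were called lower and 13.3% higher, and 14.0% had all 5 knockdown values below all 3 control values. Among the 3745 genes at least as abundant in the controls as ADSS2, 20.2% were called lower. The median log2 fold change of the 10 enzymes was -0.32, against -0.00 for all genes tested. Nothing is read from the enzymes' share, because this contrast was in view when they were selected. In bulk RNA, fewer cells of a kind and less RNA per cell cannot be told apart.

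**Figure D1:**
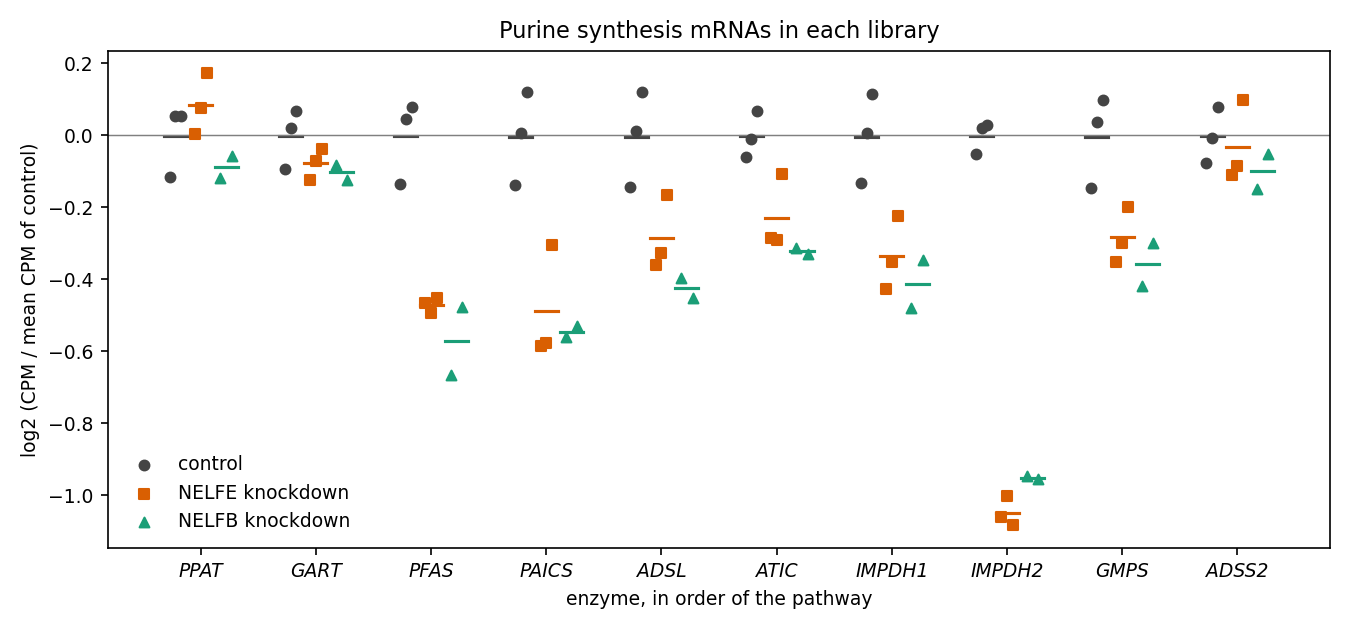
Level of each purine synthesis mRNA in each of the 8 libraries, as log2 of its CPM over the mean CPM of the 3 controls, with enzymes in pathway order. Points are libraries, short bars are the means of the log2 values of a group, and relative to control IMPDH2 is the lowest of the 10 in every knockdown library, at 189 to 207 CPM against 386 to 408 CPM in the controls.

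Each knockdown was also set against the controls separately. The NELFE knockdown had 5 enzymes called lower (PFAS, PAICS, IMPDH1, IMPDH2 and GMPS) and the NELFB knockdown 7, with none higher in either. The background was 7.04% of 16852 genes called lower and 7.92% higher after NELFE knockdown, and 8.88% lower and 10.6% higher after NELFB knockdown. The labels do not state what a shared replicate number means. With that number as a block over all 3 groups the NELFE count was 7. ADSL (log2 fold change -0.28, adjusted p = 0.00596) and ATIC (-0.23, adjusted p = 0.0136) were added, and 14.0% of all genes were called lower. Median log2 fold changes of the 10 were -0.28 for NELFE and -0.38 for NELFB. Both comparisons share the 3 control libraries. Without NELFE knockdown replicate 1 or 2 the NELFE count was 2, while the genes called lower in all fell from 1186 to 429 or 452. Without NELFB knockdown replicate 1 or 2 the NELFB count was 1 or 2, while the genes called lower in all fell from 1497 to 223 or 491. These NELFB fits rest on a single NELFB library, which is assumed to vary like the libraries of the other groups. IMPDH2 was called in each of the 15 alternative fits of all 3 comparisons with control, whereas IMPDH1 and GMPS were each called in 8 of 15 for NELFE.

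PPAT, the amidotransferase that commits PRPP to the pathway, was at 116, 130.2 and 130.4 CPM in the controls. The NELFE knockdown gave 126, 132 and 141 CPM, and the NELFB knockdown gave 116 and 121 CPM. The groups overlapped, and the log2 fold change of the knockdowns together was 0.02 ± 0.08 (SE).

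GART, a protein of 3 catalytic domains that adds glycine and the first formyl group, was at 288, 312 and 322 CPM in the controls. It gave 282, 293 and 300 CPM after NELFE knockdown and 291 and 282 CPM after NELFB knockdown. Its groups overlapped as well, with a log2 fold change of -0.09 ± 0.06 (SE).

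PFAS, which adds the next nitrogen from glutamine, was clearly lower. The controls had 230, 260 and 266 CPM, the NELFE knockdown 182, 179 and 184 CPM, and the NELFB knockdown 159 and 181 CPM. The highest knockdown library lay below the lowest control, at a log2 fold change of -0.51 ± 0.07 (SE) and an adjusted p of 0.000764.

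PAICS, a bifunctional carboxylase and ligase, was the most abundant of the 10 by CPM. It had 999.97, 1107 and 1196 CPM in the controls. The NELFE knockdown had 734, 739 and 891 CPM and the NELFB knockdown 746 and 762 CPM. All knockdown values lay below the controls (log2 fold change -0.51 ± 0.08 SE, adjusted p = 0.00168), and NELFE knockdown replicate 3 was nearest to them.

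PPAT and PAICS are divergent neighbours on chromosome 4, with canonical starts at 56435615 on the minus strand and 56436260 on the plus strand, 645 bases apart in GRCh38. RefSeq lists a further PAICS start only 137 bases from that of PPAT, and which of them HAP1 cells use was not measured. The ratio of PAICS to PPAT per exon length was 6.34 ± 0.258 (SD, n = 3) in the controls, 4.27 ± 0.264 (n = 3) after NELFE knockdown and 4.62 ± 0.0699 (n = 2) after NELFB knockdown. The lowest control ratio was 6.15 and the highest knockdown ratio 4.67, so in every knockdown library PAICS was lower relative to PPAT than in any control. Their promoters are shown because the pair starts so close together and differed in response. Of the 10 enzymes, 8 had an entry in the RefSeq promoter table (GRCh38.p14). IMPDH2 and ADSL had none. The stretches run from 250 bases before to 30 bases after the start, 5′ to 3′ on the strand of the gene, at chr4:56435586-56435865 (minus strand) for PPAT and chr4:56436010-56436289 (plus strand) for PAICS, and capitals mark the E-box CACGTG, bound by MYC and its relatives.
PPAT: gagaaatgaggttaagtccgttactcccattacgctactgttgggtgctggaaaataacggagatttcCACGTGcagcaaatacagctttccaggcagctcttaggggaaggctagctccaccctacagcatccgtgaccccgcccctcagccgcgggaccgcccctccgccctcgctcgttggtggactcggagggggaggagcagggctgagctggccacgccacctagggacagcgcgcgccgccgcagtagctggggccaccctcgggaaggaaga
PAICS: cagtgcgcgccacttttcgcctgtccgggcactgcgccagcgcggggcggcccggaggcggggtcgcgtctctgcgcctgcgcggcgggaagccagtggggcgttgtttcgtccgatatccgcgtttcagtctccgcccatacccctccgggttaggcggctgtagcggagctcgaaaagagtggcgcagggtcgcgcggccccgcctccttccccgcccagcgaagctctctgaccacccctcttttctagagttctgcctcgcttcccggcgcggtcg

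A set of 6 motifs were searched on both strands, from 250 bases before to 50 after the start. These were the E-box CACGTG, the ATF4 site TGATGNAA, the cyclic AMP response element TGACGTCA, the NRF1 core GCGCATGC, the YY1 core AANATGGC and the GC box GGGCGG, and no match of 1 motif overlapped another in these windows. The E-box occurred in 2 of the 8 windows, PPAT and ATIC, and in 7.26% of all 35116 promoters of the table. The GC box occurred in 8 of 8, and in 45.0% of all promoters. G and C made up 57.0% (PFAS) to 79.3% (GMPS) of the 8 windows, against a median of 58.7% over all promoters. Only PFAS lay below that median, and base composition was not accounted for. The ATF4 site, the cyclic AMP response element, the NRF1 core and the YY1 core had no match in the 8 windows and stood in 3.62%, 1.85%, 3.05% and 6.58% of all promoters. PPAT, which was not called, held the E-box at positions -182 to -177, counted with the start as 0, and PAICS, which was called lower, held none. Among the other windows, ATIC held the E-box and was called lower, and GART and ADSS2 held none and were not called. PFAS, IMPDH1 and GMPS, like PAICS, held none and were called lower. A match describes the letters of the window only, and a link between motif and response was not tested.

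ADSL encodes the lyase that acts both before IMP and on the adenine branch. It was at 145, 161 and 174 CPM in the controls, 125, 127 and 142 CPM after NELFE knockdown and 121 and 117 CPM after NELFB knockdown. The groups did not overlap, although NELFE knockdown replicate 3, at 142 CPM, came close to the lowest control. Without control replicate 3 ADSL was not called for the knockdowns together (adjusted p = 0.051). The log2 fold change was -0.34 ± 0.08 (SE, adjusted p = 0.0109).

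ATIC, which adds the last formyl group and closes the ring to IMP, had the smallest of the called differences. It was at 205, 213 and 224 CPM in the controls. After NELFE knockdown it was at 176, 175 and 199 CPM, and after NELFB knockdown at 173 and 170.4 CPM. The groups did not overlap (log2 fold change -0.26 ± 0.07 SE, adjusted p = 0.0152), but without control replicate 2 or 3 ATIC was not called (adjusted p = 0.0521 and 0.0663). Its promoter, chr2:215311809-215312088 on the plus strand, is shown as the other window with an E-box. The capitals mark the E-box at -46 to -41, and a further one at 29 to 34 is not marked, because the printed stretch holds only its first base.
ATIC: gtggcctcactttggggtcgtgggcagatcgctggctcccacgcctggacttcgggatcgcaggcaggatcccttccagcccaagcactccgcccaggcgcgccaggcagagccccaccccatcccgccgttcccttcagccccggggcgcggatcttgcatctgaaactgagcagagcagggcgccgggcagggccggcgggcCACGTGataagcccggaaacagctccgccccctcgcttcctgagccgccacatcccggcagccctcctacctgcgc

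IMPDH1 and IMPDH2 encode isozymes that oxidise IMP to xanthosine monophosphate, the rate-limiting step toward GTP. IMPDH2 (chr3:49024325-49029447, minus strand) was at 386, 406 and 408 CPM in the controls. After NELFE knockdown it was at 191, 199.6 and 189 CPM, and after NELFB knockdown at 207 and 206 CPM. The lowest control was far above the highest knockdown library, and the libraries of each group lay close together. The log2 fold change was -1.01 ± 0.06 (SE) for the knockdowns together, a level of 0.497 of control (adjusted p = 6.93e-06), with -1.05 ± 0.07 for NELFE and -0.95 ± 0.08 for NELFB. Among the 2073 genes called lower, IMPDH2 ranked 2 by p and 126 by the size of the fall. Most of the genes that fell further were less abundant than ADSS2, and among the 757 lower genes at least as abundant as that gene IMPDH2 ranked 8 by size.

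IMPDH1 (chr7:128392277-128409986, minus strand), the less abundant isozyme here, was at 99.0, 109 and 117 CPM in the controls. The NELFE knockdown gave 80.7, 85.0 and 92.8 CPM and the NELFB knockdown 77.8 and 85.4 CPM. It too did not overlap between control and knockdown (log2 fold change -0.36 ± 0.08 SE, adjusted p = 0.00606), but its fall was smaller than that of IMPDH2. The ratio of IMPDH2 to IMPDH1 per exon length was 2.45 ± 0.143 (SD, n = 3) in the controls, 1.49 ± 0.126 (n = 3) after NELFE knockdown and 1.68 ± 0.117 (n = 2) after NELFB knockdown, with no overlap between control and knockdown libraries. Reads on 10 annotated pseudogenes of IMPDH1 came to 1.97% of the reads on the gene. How far near copies affect the counts of IMPDH1 itself was not measured.

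GMPS, which aminates xanthosine monophosphate to GMP, was at 214, 243 and 254 CPM in the controls. It was at 186, 193 and 207 CPM after NELFE knockdown and at 178 and 193 CPM after NELFB knockdown. The groups did not overlap (log2 fold change -0.31 ± 0.07 SE, adjusted p = 0.00981).

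ADSS2 encodes the synthetase that opens the adenine branch. It was at 66.1, 69.4 and 73.6 CPM in the controls, 64.5, 65.7 and 74.7 CPM after NELFE knockdown and 62.9 and 67.3 CPM after NELFB knockdown. Control and knockdown values were interleaved, with a log2 fold change of -0.06 ± 0.07 (SE). The ratio of IMPDH2 to ADSS2 per exon length, which sets the entry enzymes of both branches side by side, was 3.86 ± 0.116 (SD, n = 3) in the controls, 1.91 ± 0.187 (n = 3) after NELFE knockdown and 2.14 ± 0.112 (n = 2) after NELFB knockdown.

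**Figure D2:**
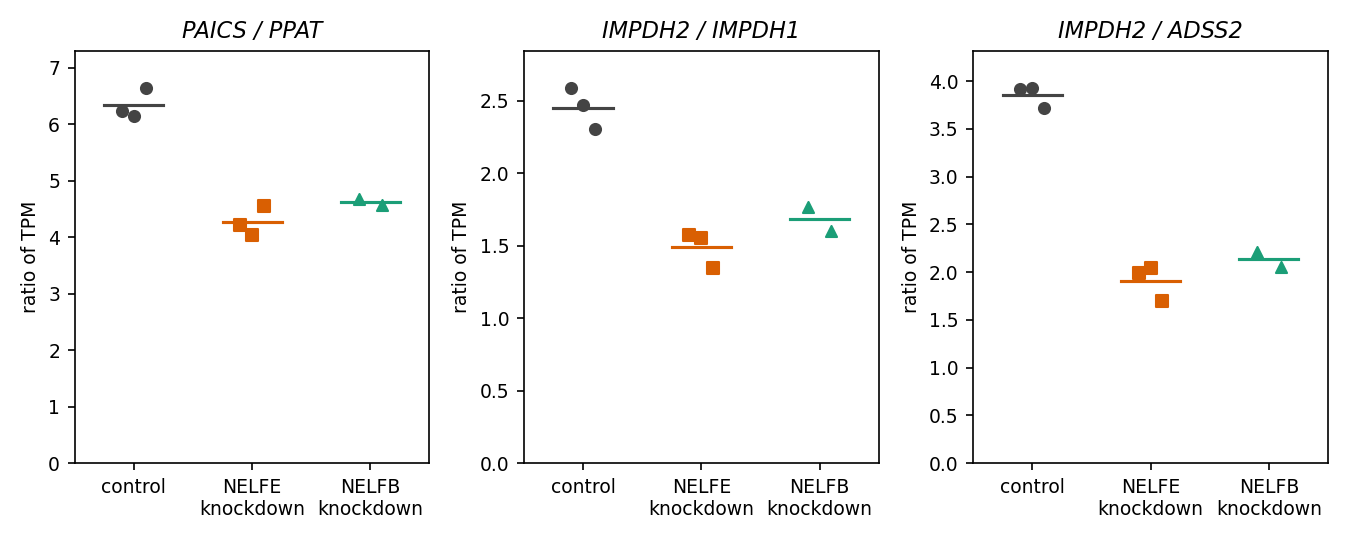
Ratios of TPM between pairs of enzymes in each library, by group, on linear axes from 0. Points are libraries and bars are group means, and in all 3 ratios every knockdown library lies below every control library.

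Levels of different genes were compared per length, as TPM, the share of a library's reads that a gene takes per base of its merged exons. In the controls the order was PAICS at 599 ± 44.8 TPM (SD, n = 3), IMPDH2 at 319 ± 6.32, ATIC at 231 ± 6.82, GART at 162 ± 6.999, PFAS at 159 ± 10.5, IMPDH1 at 131 ± 9.26, GMPS at 111 ± 8.16, PPAT at 94.4 ± 5.25, ADSS2 at 82.9 ± 3.22 and ADSL at 54.0 ± 4.17. The control ranges of GART and PFAS overlapped, and those of all other neighbours in the order did not. Even ADSL was above 78.6% of the genes tested, and PAICS above 99.0%. The order depends on the length used: over the longest coding transcript IMPDH2 led at 608 TPM before PAICS at 460.0 TPM, ADSL rose to rank 7 with 97.4 TPM and GMPS moved to rank 9 with 73.2 TPM. The merged exons of IMPDH2 cover its whole gene, and its level was lower over that length than over the longest coding transcript. The 10 mRNAs together came to 1944 ± 102 TPM in the controls (SD, n = 3), 1493 ± 39.2 TPM after NELFE knockdown (n = 3) and 1429 ± 29.8 TPM after NELFB knockdown (n = 2).

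**Figure D3:**
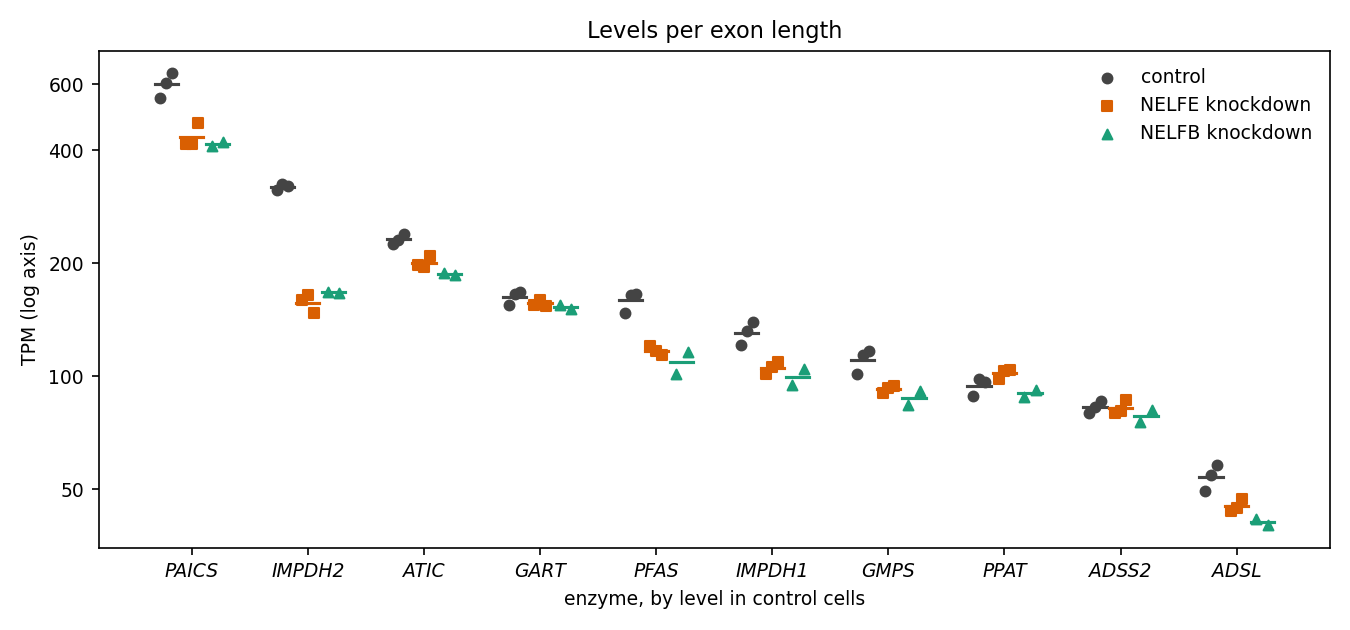
Level of the 10 enzymes per exon length (TPM on a log axis) in each library, ordered by the control mean. Points are libraries and short bars are group means, and PAICS, at 599 TPM in the controls, leads in every group.

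The contrast between the knockdowns themselves takes no control level into its fold change, although the control libraries share in the scaling and in the estimate of the spread. Without control replicate 2 the genes called came to 37, without control replicate 1 to 74, and with the knockdown libraries alone to 46, against 53 with all libraries. None of the 10 enzymes was called, where 0.315% of 16852 genes were called in either direction by edgeR's quasi-likelihood test. At an unadjusted p under 0.05 the count was 0 with edgeR and 0 with DESeq2. IMPDH2 was lower after NELFE knockdown by a log2 difference of -0.10 (NELFE minus NELFB, 95% interval -0.26 to 0.06). PPAT had the largest difference, 0.17 higher after NELFE knockdown (-0.02 to 0.37), followed by ADSL at 0.14 (-0.07 to 0.36). With the replicate number as a block, the differences of GART and PAICS were -0.00301 and -0.0198, on the same side as IMPDH2. In the main fit the 9 enzymes other than IMPDH2 had higher fitted values after NELFE knockdown, and each of the 10 intervals included 0. With 3 against 2 libraries these intervals leave room for differences of that size, and the test does not show that the knockdowns act alike.

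The libraries also differed within groups. Control replicate 1 had the lowest value of its group for 10 of 10 enzymes and control replicate 3 the highest for 10. NELFE knockdown replicate 3 was the highest of its group for 9 of 10, all but IMPDH2. The same counts were not taken over all genes, so nothing particular to the enzymes is read from them. MYC, a transcription factor that binds promoters of purine enzymes, was at 1256, 873 and 659 CPM in the controls, so it was highest in control replicate 1 and lowest in control replicate 3. It was at 1044, 1241 and 608 CPM after NELFE knockdown and at 966 and 1246 CPM after NELFB knockdown, and was not called (log2 fold change 0.14, adjusted p = 0.741). The part of these library differences in the results was not tested.

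The genes around the pathway were read from lists of related reactions, with the knockdowns together set against control. Over all 16367 genes tested 12.7% were called lower and 13.3% higher in that comparison. PRPP supply and the pentose phosphate pathway had 3 of 11 genes called lower (median log2 fold change -0.15). PRPS1, the most abundant PRPP synthetase, was not called (-0.16, adjusted p = 0.236), whereas PRPS2 fell (-0.41, adjusted p = 0.00475), as did TKT, the transketolase (-0.39, adjusted p = 0.00295). Formyl donor supply had 5 of 8 lower and 1 higher (median -0.31), beside 12.7% lower and 13.3% higher over all genes. MTHFD2, the mitochondrial folate enzyme, fell by 0.92 on the log2 scale and SHMT2 by 0.49, while the related MTHFD2L rose by 0.49.

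Of 12 salvage genes tested 2 were lower and 1 higher, with a median of -0.01, which is near the 12.7% lower and 13.3% higher of all genes. HPRT1, which recovers hypoxanthine and guanine and was the most abundant, stood at 135, 134 and 141 CPM in the controls, 106, 104 and 142 CPM after NELFE knockdown and 111 and 104 CPM after NELFB knockdown. NELFE knockdown replicate 3 lay above the controls and the other 4 knockdown libraries below them, and the gene was not called (log2 fold change -0.27, adjusted p = 0.062). Without that library HPRT1 was called lower (adjusted p = 0.00083), as it was with the replicate block (adjusted p = 0.0123). APRT, which recovers adenine, fell from 84.1, 84.2 and 84.8 CPM to 57.6, 58.8 and 54.1 CPM after NELFE knockdown and 49.6 and 56.4 CPM after NELFB knockdown (-0.61, adjusted p = 0.00023). MTAP, which releases adenine from methylthioadenosine, fell as well (-0.39, adjusted p = 0.00204). ADSS1, the muscle isozyme of ADSS2, rose by 1.11, but from 1.20 CPM or less in the controls.

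Breakdown had 4 genes with enough reads, of which NT5C2 was called higher (0.47, adjusted p = 0.04) and NT5C lower (-0.28, adjusted p = 0.0401), both nucleotidases and called in 9 and 6 of the 15 alternative fits, with a list median of -0.09. ITPA, the most abundant, which clears inosine triphosphate, was not called (-0.01, adjusted p = 0.931). Among 15 kinases and reductase subunits 2 were higher and 2 lower (median -0.07), again near the 13.3% higher and 12.7% lower of all genes. NME4, a mitochondrial nucleoside diphosphate kinase, fell by 0.84 on the log2 scale. RRM1, the large subunit of ribonucleotide reductase, fell by 0.36 (adjusted p = 0.0219), while the adenylate kinases AK1 (0.83) and AK4 (0.38) rose, AK1 from 1.64 CPM or less in the controls. RRM1 and AK4 were called in 10 of the 15 alternative fits and AK1 in 8.

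Pyrimidine synthesis, the parallel route to the other bases, had 5 of 11 genes called lower and none higher, with a median of -0.22, beside 12.7% lower and 13.3% higher over all genes and 20.2% lower among those at least as abundant as ADSS2. CAD, the protein that starts the route, stood at 369, 391 and 393 CPM in the controls, 303, 312 and 305 CPM after NELFE knockdown and 267 and 311 CPM after NELFB knockdown (log2 fold change -0.36, adjusted p = 0.00333). DHODH, its mitochondrial step, fell by 0.36 and DTYMK, thymidylate kinase, by 0.48. TYMS, thymidylate synthase and the most abundant of the list, was not called (-0.09, adjusted p = 0.701). All 11 pyrimidine genes had a negative log2 fold change, as had 9 of the 10 purine enzymes, and IMPDH2 fell further than any of the 11. That of TYMS changed sign with a library left out. The median over all genes tested was -0.002, and the share of all genes with a negative value was not counted. These lists, too, were drawn up with earlier results of the same libraries known.

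**Figure D4:**
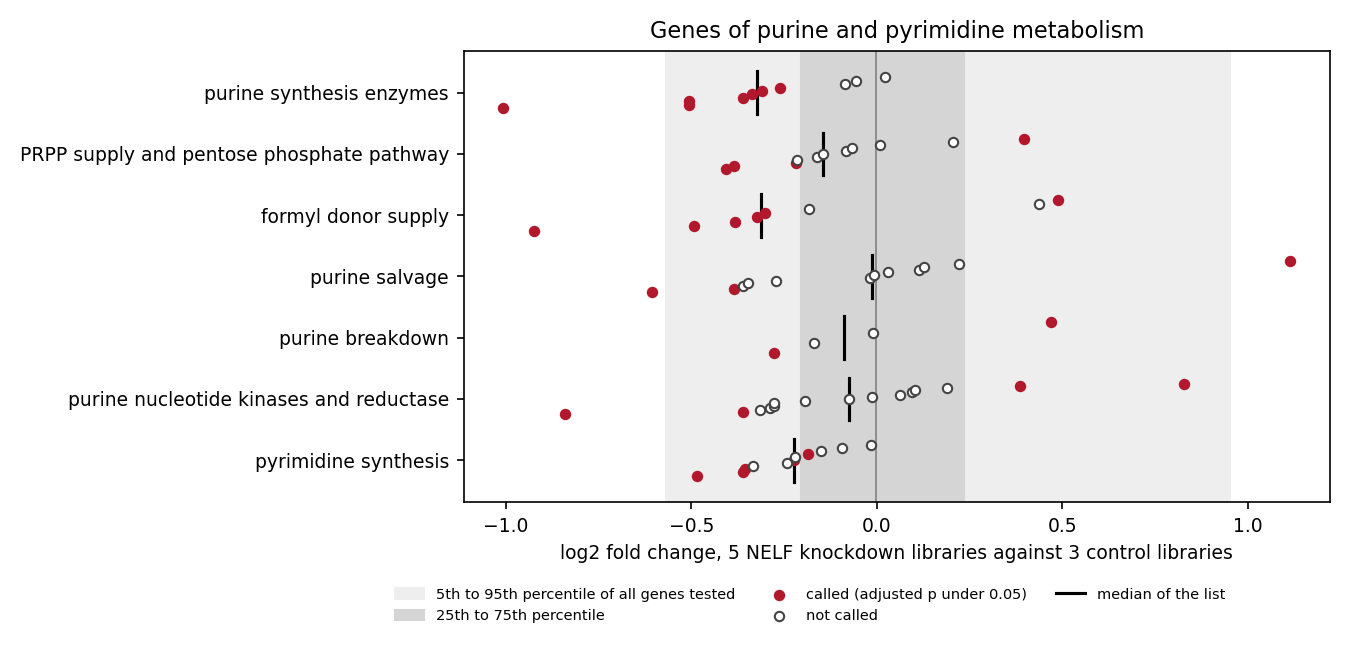
Log2 fold change of the 5 NELF knockdown libraries against the 3 controls for each tested gene of the purine and pyrimidine lists. Filled points were called, vertical bars are list medians, and shading gives the 5th to 95th (-0.57 to 0.95) and 25th to 75th (-0.21 to 0.23) percentiles of all 16367 genes tested, with IMPDH2 the leftmost point at -1.01.

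Of 6 transcription factors linked to these genes (MYC, MAX, ATF4, TFEB, NRF1 and YY1), only ATF4, which drives amino acid and formyl donor genes under stress, was called, beside 12.7% lower and 13.3% higher over all genes tested. It stood at 359, 392 and 394 CPM in the controls, 249, 251 and 283 CPM after NELFE knockdown and 254 and 234 CPM after NELFB knockdown (log2 fold change -0.58, adjusted p = 0.00035). SON, the divergent neighbour of GART 921 bases away, was not called (-0.03), and an lncRNA 82 bases from the start of IMPDH2 had 44 counts in all libraries together, too few to test. SON and the lncRNA each overlap the annotated span of the enzyme beside them, where counts without strand cannot tell the genes apart.

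The genes whose pattern over the 8 libraries lay nearest to that of IMPDH2 were found among 12792 candidates by the root mean square difference of centred log2 CPM. They were HMMR (0.100), a microtubule-binding protein of the mitotic spindle, SLC1A5 (0.104), a glutamine transporter, AARS1 (0.108), alanyl-tRNA synthetase, and the noncoding snoRNA hosts ZFAS1 (0.1104) and SNHG29 (0.112). HMMR, for example, was at 218, 218 and 212 CPM in the controls, 95.6, 105 and 107 CPM after NELFE knockdown and 93.2 and 105 CPM after NELFB knockdown. Of the other enzymes PFAS (0.264) and PAICS (0.272) came nearest, at ranks 311 and 352, and PPAT (0.512) was farthest.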

How the data were processed

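Libraries made with TruSeq RNA LT were sequenced as single 65-base reads. The deposited values are raw counts per gene, which the authors made with STAR 2.5.4a on GRCh38 and Gencode v24 without regard to strand, after FastQC 0.11.6. The study's methods call the NELFE and NELFB libraries independent biological replicates. No library pair was identical. The depth of 22037423 to 24444185 counts per library was similar across groups. Counts were tested with edgeR 4.0.16 (R 4.3.3, TMM scaling, filterByExpr, quasi-likelihood F test, Benjamini-Hochberg adjusted p under 0.05), in a model of 2 groups for the combined knockdowns and of 3 groups otherwise, and with DESeq2 1.42.0 as an alternative. Scripts were tested on simulated data. Positions and lengths came from Gencode v44 on GRCh38, which held 97.35% of the gene identifiers and 99.88% of counts. Counts of overlapping or antisense genes cannot be told apart without strand.

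The members and all gene lists were chosen with earlier results of these data known. Genes named are the 10 enzymes, the guide targets, genes starting within 1000 bases on the opposite strand, per list the most abundant and up to 3 called genes of largest log2 fold change, and the 5 genes nearest to IMPDH2 whose mean log2 CPM was 1 or more. CD34, KRT8, KRT18, CD33, HBG1 and VIM are markers. Some named items of these lists are not reported here. Deviations from group means of same-numbered control and NELFE knockdown libraries correlated at 0.448, 0.106 and 0.666. Between different numbers they correlated at -0.525 to 0.369, highest for control replicate 1 with NELFE knockdown replicate 2. The labels do not say what a shared number means, so the replicate block is an alternative fit only. It covered the NELFB libraries as well. For NELFB, with 2 numbers, the correlation with control was -0.0492.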

Additional observations from a re-analysis of the deposited data

Results flagged for a closer look

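In 10 of the 34 enzymes and related genes examined, 1 of the 5 knockdown libraries stood apart from the others, its gap to the next divided by the range exceeding 0.71. Chance alone flags about 1 in 20 groups of 5 when all values come from 1 normal distribution. Here the 5 libraries come from 2 guides and all genes share them, so that rate gives no expected count. NELFE knockdown replicate 3 was the high library for PAICS (891 CPM, the other 4 at 734 to 762), ATIC (199 CPM), PRPS2 (76.5 CPM), HPRT1 (142 CPM), RRM1 (347 CPM), TYMS (216 CPM) and MTHFD2 (162 CPM). NELFB knockdown replicate 1 was the low library for PFAS (159 CPM, the other 4 at 179 to 184) and CAD (267 CPM), and NELFB knockdown replicate 2 was the high library for NME4 (98.6 CPM). IMPDH2 was not among them. The part of these libraries in the results was not tested beyond leaving each out.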

How the results depend on the processing

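Against control, the direction and call of IMPDH2 held in all alternatives run: other size factors, DESeq2, other count filters, a prior count of 2, the replicate block, fewer libraries and each library left out. Leaving out 1 library moved the genes called from 4255 to between 2688 and 5125 for the combined knockdowns, from 2520 to 990 to 3123 for NELFE, from 3290 to 603 to 4316 for NELFB, and from 53 to 27 to 78 between the knockdowns. The enzymes called lower ranged from 5 to 7 combined, 2 to 7 for NELFE and 1 to 7 for NELFB. The NELFE count was 3 without control replicate 2 or 3 or either NELFB library and 2 without NELFE knockdown replicate 1 or 2. The NELFB count was 4 without control replicate 2 and 5 without control replicate 3. Its lowest values came without an NELFB library, where a lone NELFB library is assumed to vary like the other groups. With the libraries of the comparison alone 3 enzymes were lower after NELFE knockdown. Between the knockdowns, DESeq2 called 90 genes and edgeR without a filter on low counts 161. The replicate block gave 4763 genes for NELFE and 195 between the knockdowns, where GART moved to -0.00 (-0.00301) and PAICS to -0.0198, and it changed no other call of an enzyme than ADSL and ATIC for NELFE, and of the related genes named that of HPRT1 alone. Same-numbered NELFE and NELFB libraries correlated at 0.387. With a library left out, uncalled log2 fold changes against control crossed 0, with the knockdowns together, for PPAT (-0.0357 to 0.0539), ITPA (-0.0420 to 0.0163), TYMS (-0.246 to 0.0265), MYC (-0.0606 to 0.413) and SON (-0.132 to 0.0569), for ADSS2 after NELFE knockdown (-0.0990 to 0.0108) and for PAICS between the knockdowns (-0.0354 to 0.111). PPAT was also at -0.000302 as the mean of both knockdowns in a model of 3 groups. The cause was not tested.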

Other observations

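Markers outside the pathway also differed. KRT8, a simple epithelial keratin, was at 4.12, 3.06 and 3.28 CPM in the controls, 10.6, 4.77 and 12.0 CPM after NELFE knockdown and 18.3 and 9.01 CPM after NELFB knockdown (log2 fold change 1.65, adjusted p = 0.00913 by edgeR's quasi-likelihood test). Its partner KRT18 rose by 0.56 on the log2 scale, from control levels between 28.01 and 30.34 CPM (adjusted p = 0.0174). CD34, a marker of blood progenitors, was at 0.12, 0.13 and 0.04 CPM in the controls, or 3 counts and less per library, and at 0.66, 0.26, 1.30, 2.78 and 0.90 CPM in the knockdowns, and was called higher (adjusted p = 0.0142). No fold change is given for it, since the controls are at or under 3 counts.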
